A study of Mus musculus with 24 samples.

Results

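The interleukin-1 (IL-1) family, its receptors and its antagonists were followed as 8 genes, *Il1a*, *Il1b*, *Il1rn*, *Il1r1*, *Il1r2*, *Il1rap*, *Il18* and *Il18bp*, out of 17301 genes measured in 24 RNA-seq libraries. The genes were listed by family, and the list was drawn up with the knowledge that *Il1a* stood higher in all tumour libraries, so *Il1a* was in part selected on its own difference between tumour and normal tissue. That difference is therefore given as a description with no test, whereas the other 7 genes were tested. All 8 genes passed the filter of a mean RPKM (reads scaled to gene length and to library size) of at least 1 in at least 1 group, which left 12878 genes tested.

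Myeloid cells came from the colon lamina propria (LP) of adult C57BL/6J mice (strain label C57/BL) and from colon tumours of adult *Apc* Min/+ mice (strain label APC/Min), whose germline *Apc* mutation gives rise to intestinal adenomas. In each tissue, F4/80hi MHCIIhi macrophages, F4/80hi MHCIIlow macrophages, Ly6Chi MHCII- monocytes and Ly6Ghi F4/80- CD11b+ neutrophils were sorted, each with 3 libraries from pools of mice. Tumour mice had drunk dextran sodium sulphate, an agent that injures the colon epithelium. The study's methods describe dextran sodium sulphate for C57BL/6J mice as well, at another concentration, yet the sample labels call the LP healthy, so what the LP donors received is not settled. LP was stripped of epithelium with EDTA and digested with collagenase D, while tumours were digested with collagenase D and DNase I. Strain, treatment, digestion and pool all change with the tissue and cannot be told apart from it, and in sorted bulk RNA a smaller share of expressing cells and less RNA per cell cannot be told apart either.

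IL-1 alpha and IL-1 beta are proinflammatory ligands that bind the same receptor, IL1R1, which signals together with the accessory chain IL1RAP. The pathway is held back by the receptor antagonist encoded by *Il1rn*, which occupies IL1R1 without signalling, and by the decoy receptor IL1R2, which captures ligand. IL-18 is a related cytokine that needs cleavage by an inflammasome protease, and IL18BP is its soluble inhibitor. Myeloid cells are a major source of these ligands in inflamed gut.

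The upstream bases of 3 of the genes are shown because *Il1a* and *Il1b* both stood higher in tumour cells and *Il1r2* went opposite ways in the macrophage subsets. *Il1a* (ENSMUSG00000027399.1) lies on chromosome 2, 129299610 to 129309972, minus strand, and *Il1b* (ENSMUSG00000027398.9) on the same chromosome and strand, 129364570 to 129371139, whereas *Il1r2* (ENSMUSG00000026073.9) lies on chromosome 1, 40074079 to 40125231, plus strand (GRCm38, GENCODE M21). The 250 bases before the RefSeq start are printed 5′ to 3′ on the gene's strand (GRCm38.p6), for *Il1a* chr2:129309973-129310222, for *Il1b* chr2:129371140-129371389 and for *Il1r2* chr1:40085843-40086092. Capitals mark matches on either strand to 6 motifs. The NF-kB type motif (GGG at one end, TTTCC at the other and a pair of any bases between) was present in 1.41% of the 32851 RefSeq windows of the same length. The C/EBP type motif, TTGCNNAA, was in 9.56% of them. The PU.1 type motif, GAGGAAG, was in 10.6% and the AP-1 type motif, TGANTCA, in 6.75%. The TATA box, TATAAA, was in 12.4% and the core of the hypoxia element, ACGTG, in 16.6%.
Il1a: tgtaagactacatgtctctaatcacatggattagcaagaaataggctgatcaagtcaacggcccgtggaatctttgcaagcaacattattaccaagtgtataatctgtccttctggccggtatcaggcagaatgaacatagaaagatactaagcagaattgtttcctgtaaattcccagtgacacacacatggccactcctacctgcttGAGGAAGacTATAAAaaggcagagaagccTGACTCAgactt
Il1b: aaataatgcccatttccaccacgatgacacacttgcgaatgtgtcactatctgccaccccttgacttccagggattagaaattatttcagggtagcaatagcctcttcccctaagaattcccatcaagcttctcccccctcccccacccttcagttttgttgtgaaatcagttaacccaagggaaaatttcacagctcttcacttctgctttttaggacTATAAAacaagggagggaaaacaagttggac
Il1r2: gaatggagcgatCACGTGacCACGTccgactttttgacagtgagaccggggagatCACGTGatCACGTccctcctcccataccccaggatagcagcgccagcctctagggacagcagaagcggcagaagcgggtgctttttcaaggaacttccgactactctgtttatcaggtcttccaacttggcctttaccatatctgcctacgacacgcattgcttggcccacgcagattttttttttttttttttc
A TATAAA match began 32 bases before the start of *Il1a* and 31 bases before that of *Il1b*, and *Il1a* also held a PU.1-type match at 41 bases and an AP-1-type match at 12 bases. The *Il1r2* window held ACGTG on either strand in 6 overlapping or neighbouring places, including as the palindrome CACGTG. The 3 windows held no match to the NF-kB type. These matches describe letters in a window and not binding. RefSeq windows were found for all 8 genes.

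The other 5 genes lie elsewhere in GRCm38. *Il1rn* (ENSMUSG00000026981.11) is on chromosome 2, 24336853 to 24351494, and *Il1r1* (ENSMUSG00000026072.8) on chromosome 1, 40225080 to 40317257, beside *Il1r2*. *Il1rap* (ENSMUSG00000022514.10) is on chromosome 16, 26581704 to 26730117, *Il18* (ENSMUSG00000039217.8) on chromosome 9, 50554827 to 50581840, and *Il18bp* (ENSMUSG00000070427.3) on chromosome 7, 102014885 to 102018690, on the minus strand. Genes on the opposite strand overlap 1.31% of the exon bases of *Il1b* (Il1bos), 4.86% of those of *Il1rap* (Gm20319) and 2.64% of those of *Il18bp* (*Numa1*). The libraries do not mark strand, so reads there cannot be told apart.

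Before the results, some libraries stood apart. LP monocyte libraries III and V held RNA of squamous keratinocytes, with a summed level of 15 markers of 3083 and 1340 RPKM against 7.33 RPKM in library IV, and 0.077 to 40.8 RPKM in all other libraries. MHC class II RNA was lowest among macrophages in LP MHCIIlow library II, with 5 genes summing to 878 RPKM, compared with 39016 to 45700 RPKM in LP MHCIIhi and 2121 to 9862 RPKM in tumour MHCIIlow macrophages. The 11 macrophage markers summed to 4598 to 8229 RPKM in macrophages, 1021 to 1323 RPKM in monocytes and 601 to 798 RPKM in neutrophils. In monocytes the 9 monocyte markers summed to 1171 to 1662 RPKM in LP and 3315 to 4043 RPKM in tumour. In neutrophils the 12 neutrophil markers summed to 13504 to 21086 RPKM in LP and 27681 to 41579 RPKM in tumour. Other lists moved with the tissue. Markers of B and plasma cells summed to 157 to 1301 RPKM in LP and 0.203 to 20.1 RPKM in tumour monocytes and neutrophils. Dendritic cell markers (8 genes) summed to 93.4 to 187 RPKM in LP and 2.82 to 20.6 RPKM in tumour neutrophils, and to 52.2 to 74.4 and 7.64 to 17.9 RPKM in MHCIIhi macrophages. Epithelial markers (12 genes) summed to 26.1 to 227 RPKM in LP and 145 to 386 RPKM in tumour monocytes. Their part in the results was not tested. Reads on genes ranged from 12.8 M to 41.7 M per library. The library size behind the deposited values was 0.466 to 0.483 of these reads in tumour neutrophils and 0.630 to 0.682 in LP neutrophils. It was 0.981 to 1.21 of them in monocytes and 1.13 to 1.51 in macrophages. A smaller ratio raises every gene of a library alike, so differences between these groups also carry this scaling. A group with 12 to 138 reads on a gene, as for *Il1r1* below, is measured less precisely than one with 3038 to 4638 reads.

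*Il1a*, the ligand that also acts as an alarm signal when cells die, was higher in tumour than in LP in all 4 populations. In LP it measured 6.36, 6.52 and 6.15 log2 RPKM in MHCIIhi macrophages, 7.36, 6.65 and 6.84 in MHCIIlow macrophages, 7.58, 7.99 and 7.20 in monocytes and 8.04, 7.99 and 7.06 in neutrophils. In tumours it measured 8.92, 8.50 and 8.56 in MHCIIhi macrophages, 9.29, 8.68 and 8.83 in MHCIIlow macrophages, 11.19, 10.62 and 10.43 in monocytes and 12, 11.93 and 11.51 in neutrophils. The lowest tumour library (8.50) thus lay above the highest LP library (8.04), a separation shown by 18 of the 12878 genes (0.14%), *Il1a* included. Because *Il1a* was selected on this difference, that share is a description and no test. In MHCIIhi and MHCIIlow macrophages, tumour libraries lay wholly above LP for 20.9% and 22.7% of all genes and wholly below for 22.1% and 19.3%. In monocytes and neutrophils these shares were 16.2% and 18.3% above and 15.1% and 21.8% below. They stand beside every separation within a population named below. On this scale a difference of 1 is a 2-fold change, and tumour exceeded LP by 2.32 in MHCIIhi macrophages, 1.98 in MHCIIlow macrophages, 3.16 in monocytes and 4.12 in neutrophils, or by 4.99-, 3.95-, 8.91- and 17.4-fold. In LP the population means ran from 81.7 RPKM in MHCIIhi macrophages to 217 RPKM in neutrophils. In tumours they spread further, from 409 RPKM in MHCIIhi macrophages to 3644 RPKM in neutrophils. Differences between populations within a tissue were tested. The choice of the gene used the same tumour levels, though not their order between populations. Tests of *Il1a* within tumour are thus not independent of that choice. Tumour neutrophils exceeded tumour monocytes by 1.07 ± 0.28 (SE, adjusted p = 0.0025, limma), a difference that turned to -0.78 under quantile normalization, while in LP it was 0.10 ± 0.28 (adjusted p = 0.77). LP monocytes exceeded LP macrophages by 0.94 ± 0.24 (adjusted p = 0.0052), and the adjusted p was 0.052 without LP monocyte library IV. Of the exon bases of *Il1a*, 11.2% lie opposite exons of Gm14023.

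**Figure D1:**
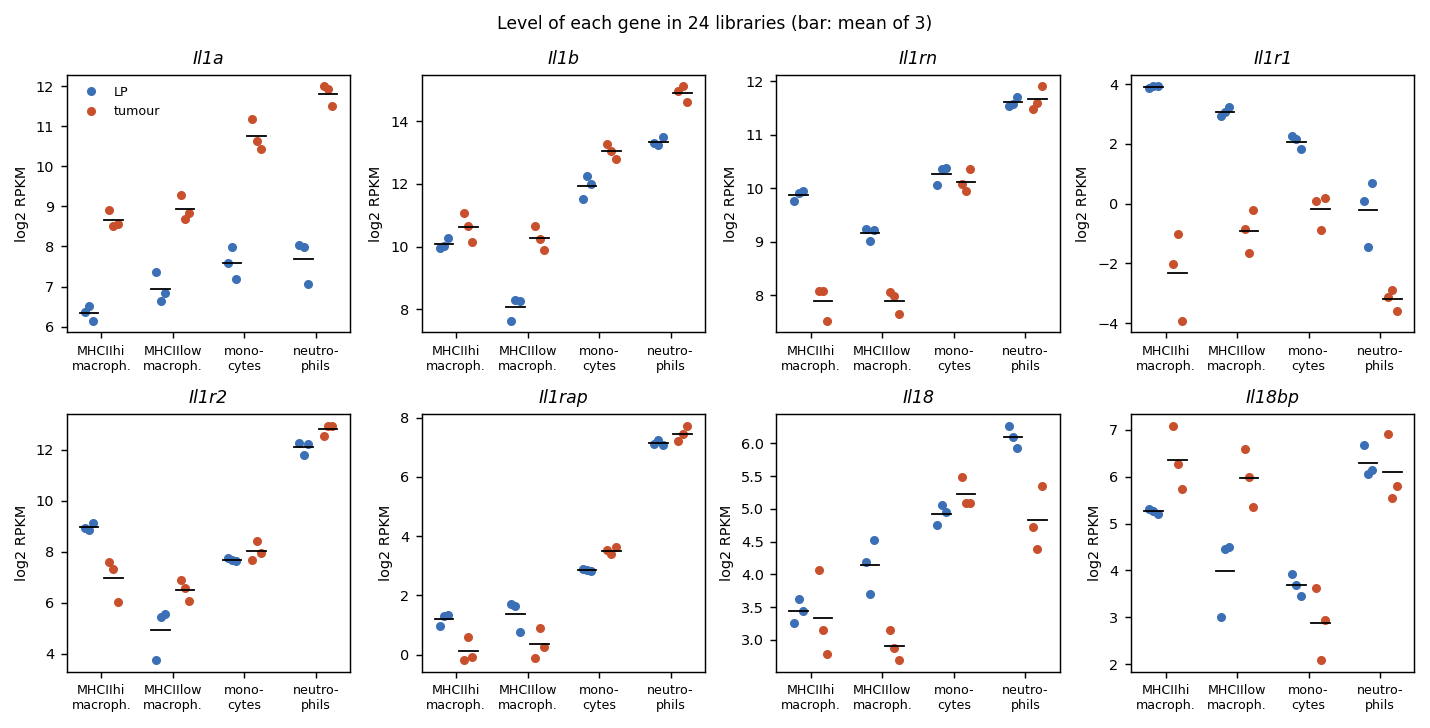
Level of the 8 genes in log2 RPKM (vertical axes) in the 4 sorted populations (horizontal axes), with 1 point per library, LP in blue and tumour in red, and bars at the mean of 3 libraries. Points for Il1a in tumour lie above those in LP in every population, and points for Il1r1 lie below.

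*Il1b*, the ligand made as a precursor and released after inflammasome activation, was among the most abundant transcripts of monocytes and neutrophils in both tissues and rose in 3 of 4 tumour populations. In tumour neutrophils only 1 of the 12878 genes had a higher mean level. LP neutrophils measured 13.31, 13.25 and 13.49 log2 RPKM and tumour neutrophils 14.98, 15.12 and 14.61, so the groups did not overlap and differed by 1.55 ± 0.28 (adjusted p = 0.00033). Quantile normalization, which gives genes of the same rank the same value, set this difference to 0. LP MHCIIlow macrophages measured 7.63, 8.30 and 8.27 and tumour MHCIIlow macrophages 10.65, 10.26 and 9.88, a rise of 2.19 ± 0.28 (adjusted p = 9.7e-06). LP monocytes measured 11.51, 12.27 and 11.99 and tumour monocytes 13.29, 13.05 and 12.79, a rise of 1.12 ± 0.28 (adjusted p = 0.015). The monocyte rise was 0.77 with an adjusted p of 0.43 without both LP libraries that held keratinocyte RNA, an alternative added after seeing the data. With the spread from the compared groups alone the adjusted p was 0.17. It also missed the threshold when LP monocyte library III (adjusted p = 0.089) or tumour monocyte library I (adjusted p = 0.071) was left out. MHCIIhi macrophages overlapped, at 9.97, 10.03 and 10.27 in LP and 11.06, 10.65 and 10.13 in tumour, with a difference of 0.52 ± 0.28 (adjusted p = 0.22). The rise in MHCIIlow exceeded that in MHCIIhi macrophages by 1.67 ± 0.40 (adjusted p = 0.043), but that call was lost when any of 9 single libraries was left out, with adjusted p up to 0.11.

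*Il1rn*, the receptor antagonist, fell in both tumour macrophage subsets and was not called in the other cells. LP MHCIIhi macrophages measured 9.77, 9.90 and 9.94 log2 RPKM and their tumour counterparts 8.08, 8.07 and 7.52, a fall of 1.98 ± 0.18 (adjusted p = 1.8e-07). LP MHCIIlow macrophages measured 9.24, 9.02 and 9.22 against 8.06, 7.98 and 7.65 in tumour, a difference of -1.26 ± 0.18 (adjusted p = 2.7e-05). All tumour macrophage libraries were below all LP macrophage libraries of the same subset. Monocytes (10.07, 10.37 and 10.38 in LP against 10.07, 9.94 and 10.36 in tumour) and neutrophils (11.54, 11.58 and 11.71 against 11.49, 11.60 and 11.91) overlapped, with differences of -0.15 ± 0.18 (adjusted p = 0.71) and 0.06 ± 0.18 (adjusted p = 0.85). The tumour effect differed between the monocytes and neutrophils and the macrophages by 1.58 ± 0.18 (adjusted p = 3.0e-06). Under quantile normalization the monocyte and neutrophil differences became -0.73 and -0.85, both past the threshold.

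*Il1r1*, the signalling receptor, fell in all 4 populations. LP MHCIIhi macrophages measured 3.88, 3.93 and 3.93 log2 RPKM (3038 to 4638 reads) and tumour MHCIIhi macrophages -2.01, -1.03 and -3.91 (12 to 138 reads), a fall of 6.23 ± 0.61 (adjusted p = 5.5e-07). LP MHCIIlow macrophages measured 2.93, 3.06 and 3.24 against -0.86, -1.65 and -0.23 in tumour, a difference of -3.99 ± 0.61 (adjusted p = 7.3e-05). No tumour library overlapped its LP group. Monocytes went from 2.25, 2.17 and 1.82 to 0.10, -0.87 and 0.21 (-2.27 ± 0.61, adjusted p = 0.023), and neutrophils from 0.10, -1.46 and 0.71 to -3.12, -2.87 and -3.59 (-2.98 ± 0.61, adjusted p = 0.00098), with 31 to 223 reads in LP and 4 to 9 reads in tumour. The size depends on how low values are treated, and with log2(RPKM + 1) the MHCIIhi and neutrophil differences were -3.68 and -0.81, with adjusted p of 3.4e-10 and 0.005. The monocyte call was lost when LP monocyte library III or IV or tumour monocyte library II was left out (adjusted p from 0.06 to 0.11), and without both keratinocyte-bearing libraries (adjusted p = 0.23). The macrophage fall exceeded that in monocytes and neutrophils by 2.49 ± 0.61 (adjusted p = 0.0064), a call that was lost with the pool as a fixed replicate block (2.44, adjusted p = 0.054).

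RNA of fibroblasts, which express *Il1r1*, moved with the tissue. The sum of 10 fibroblast markers was 9.10 to 73.1 RPKM in LP libraries and 0.802 to 2.08 RPKM in tumour libraries, with *Lum* at 0 reads in all 12 tumour libraries and in none of LP. Within LP the order was another one, since MHCIIhi macrophages had the most *Il1r1* (15.1 RPKM) with 9.10 to 24.9 RPKM of fibroblast markers, and MHCIIlow macrophages had 8.47 RPKM with 22.4 to 73.1 RPKM. RNA of the list for T cells, natural killer cells and innate lymphoid cells was 141 to 149 RPKM in LP and 15.3 to 24.8 RPKM in tumour MHCIIhi macrophages. Most of it was *Il7r*. In LP MHCIIhi libraries *Cd3e* had 0 to 2 reads, *Cd3d* 0 to 23, *Lck* 0 to 61, *Klrb1c* 22 to 50 and *Cd2* 37 to 108. In tumour MHCIIhi libraries *Cd2* had 8 to 16 reads and *Klrb1c* 51 to 278. The part of these cells in the level of *Il1r1* was not tested.

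*Il1r2*, the decoy receptor, was most abundant in neutrophils and went opposite ways in the macrophage subsets. LP MHCIIhi macrophages measured 8.93, 8.87 and 9.13 log2 RPKM and tumour MHCIIhi macrophages 7.58, 7.34 and 6.03, a fall of 1.99 ± 0.39 (adjusted p = 0.0011). LP MHCIIlow macrophages measured 3.75, 5.44 and 5.55 and tumour MHCIIlow macrophages 6.91, 6.56 and 6.05, a rise of 1.60 ± 0.39 (adjusted p = 0.0052). The groups did not overlap in either subset, and the effects differed by 3.59 ± 0.56 (adjusted p = 0.0027). In LP the subsets thus stood 4.07 ± 0.39 apart (adjusted p = 3.5e-06), and in tumours 0.48 ± 0.39 with no call (adjusted p = 0.79). In neutrophils the libraries did not overlap, at 12.27, 11.81 and 12.24 in LP and 12.56, 12.96 and 12.96 in tumour, but the difference of 0.72 ± 0.39 was not called (adjusted p = 0.17). Monocytes overlapped, at 7.75, 7.69 and 7.63 in LP and 7.66, 8.42 and 7.95 in tumour (0.32 ± 0.39, adjusted p = 0.71). Both calls in MHCIIlow macrophages missed the threshold when the spread came from the compared groups alone, with adjusted p of 0.10 for the rise and 0.067 for the difference of effects.

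Because *Il1r2* is most abundant in neutrophils, its level in macrophages was set beside neutrophil markers, each as a share of the median of neutrophils of the same tissue. *Il1r2* stood at 0.833% to 1.51% in tumour MHCIIlow, 0.819% to 2.40% in tumour MHCIIhi, 0.278% to 0.967% in LP MHCIIlow and 9.69% to 11.6% in LP MHCIIhi macrophages. The sum of 12 neutrophil markers stood at 0.723% to 1.90%, 0.423% to 0.618%, 0.166% to 0.483% and 0.29% to 0.327% in the same groups, but 80.2% to 97.6% of that sum came from *Mmp9* and *Csf3r*. Without these genes, a choice made after seeing the data, the other 10 markers summed to 0.0798% to 0.0985% in tumour MHCIIlow and 0.0087% to 0.0719% in LP MHCIIlow macrophages. In both tumour subsets 10 of the 12 markers had a lower share than *Il1r2* in every library, *Mmp9* had a higher one and *Csf3r* overlapped. The 10 summed markers were higher in tumour than in LP MHCIIlow macrophages, at shares below that of *Il1r2* in all libraries. The sum of all 12 markers overlapped *Il1r2* in tumour MHCIIlow macrophages. The part of neutrophil RNA in the level of *Il1r2* was not tested. *Il1a* and *Il1b* stood at 9.28% or more and 2.90% or more of the neutrophil level in every tumour macrophage library.

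*Il1rap*, the accessory chain of the receptor, was a neutrophil transcript, at 7.08 to 7.24 log2 RPKM in LP and 7.22 to 7.74 in tumour neutrophils, compared with -0.18 to 1.71 in the 12 macrophage libraries. It fell in tumour MHCIIhi (-1.09 ± 0.26, adjusted p = 0.0053) and MHCIIlow macrophages (-1.01 ± 0.26, adjusted p = 0.0072), where its share of the neutrophil level was 0.507% to 1.07%. The 12 neutrophil markers summed to 0.423% to 1.90% there, and the 10 without *Mmp9* and *Csf3r* to 0.0167% to 0.0985%. Of the 12 markers, 10 had a lower share than *Il1rap* in every tumour MHCIIhi library and 7 in every tumour MHCIIlow library. The part of neutrophil RNA in the level of *Il1rap* was not tested. Both calls missed the threshold with the spread from the compared groups alone (adjusted p = 0.055 and 0.15). The differences in monocytes (0.66 ± 0.26, adjusted p = 0.12) and neutrophils (0.32 ± 0.26, adjusted p = 0.38) were not called. The macrophage effect stood apart from that in monocytes and neutrophils by 1.55 ± 0.26 (adjusted p = 0.00026).

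*Il18* fell in tumour MHCIIlow macrophages and tumour neutrophils. It measured 6.27, 6.10 and 5.93 log2 RPKM in LP neutrophils and 4.73, 4.39 and 5.35 in tumour neutrophils (-1.28 ± 0.28, adjusted p = 0.0015), and 3.70 to 4.52 in LP against 2.69 to 3.15 in tumour MHCIIlow macrophages (-1.23 ± 0.28, adjusted p = 0.0026). These groups did not overlap. Neither MHCIIhi macrophages (-0.11 ± 0.28, adjusted p = 0.85) nor monocytes (0.30 ± 0.28, adjusted p = 0.60) passed the test. The neutrophil effect was 1.58 ± 0.39 below that in monocytes (adjusted p = 0.015), a call that was lost without both keratinocyte-bearing LP monocyte libraries (adjusted p = 0.13). Colon epithelium also makes IL-18, and 12 epithelial markers summed to 206 to 392 RPKM in tumour and 24.2 to 90.1 RPKM in LP neutrophils. Their part in the level of *Il18* was not tested.

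*Il18bp*, the inhibitor, rose in tumour MHCIIlow macrophages, from 3.0, 4.45 and 4.50 to 6.60, 6.0 and 5.35 log2 RPKM (2.00 ± 0.45, adjusted p = 0.0025). With the spread from the compared groups alone the adjusted p was 0.055. In MHCIIhi macrophages the libraries did not overlap (5.21 to 5.31 in LP and 5.73 to 7.09 in tumour), but the difference of 1.10 ± 0.45 was not called (adjusted p = 0.094). Monocytes (-0.81 ± 0.45, adjusted p = 0.31) and neutrophils (-0.20 ± 0.45, adjusted p = 0.78) overlapped. The effect in monocytes and neutrophils was 2.05 ± 0.45 below that in macrophages (adjusted p = 0.0025).

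Among the 7 tested genes, 4 were called between tumour and LP in MHCIIhi macrophages, all lower, where 19.5% of all genes were called. In MHCIIlow macrophages 3 were higher and 4 lower (23.3% of all genes). In monocytes *Il1b* was higher and *Il1r1* lower (9.29% of all genes), and in neutrophils 1 was higher and 2 lower (32.2%). Averaged over populations, *Il1b* was higher and *Il1rn*, *Il1r1* and *Il18* lower (42.4%). Between monocytes and neutrophils together and macrophages together, 4 of the 7 tumour effects differed (20.8%), compared with 2 between the macrophage subsets (1.46%) and 1 between neutrophils and monocytes (9.11%). The median difference of the 7 genes was -1.09 in MHCIIhi macrophages, -1.01 in MHCIIlow macrophages, 0.30 in monocytes and 0.06 in neutrophils, beside medians over all genes of 0, 0.06, 0 and -0.12. When the spread came from the compared groups alone, 4 rather than 7 genes were called in MHCIIlow macrophages.

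**Figure D2:**
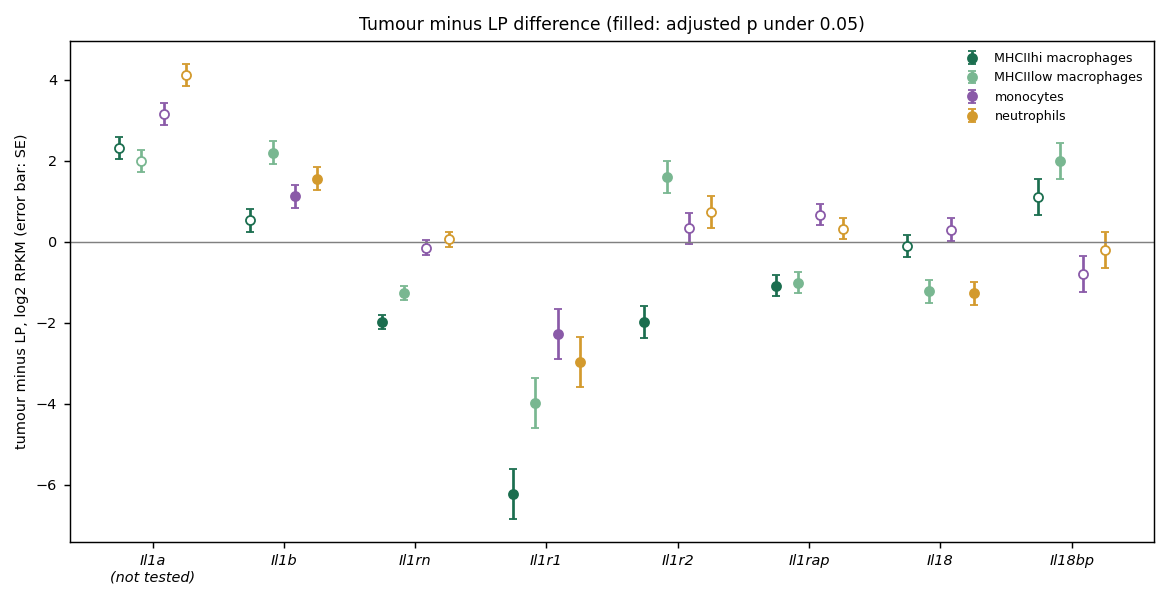
Tumour minus LP difference in log2 RPKM (vertical axis) of each gene (horizontal axis) in the 4 populations, with SE as error bars and filled symbols for an adjusted p under 0.05. Il1r1 is below 0 in all populations, Il1rn falls in both macrophage subsets and Il1r2 lies on either side of 0 in the macrophage subsets, while Il1a was not tested.

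The balance of ligand and antagonist was read as the difference of 2 genes within a library, in log2 RPKM. *Il1b* minus *Il1rn* was 0.22 ± 0.10 (SD, n = 3) in LP and 2.72 ± 0.22 in tumour MHCIIhi macrophages, and -1.09 ± 0.46 and 2.36 ± 0.20 in MHCIIlow macrophages. It was 1.65 ± 0.23 and 2.92 ± 0.43 in monocytes and 1.74 ± 0.06 and 3.24 ± 0.46 in neutrophils. *Il1b* RNA therefore outweighed *Il1rn* RNA by 5.14- to 9.44-fold in tumour cells, and in LP MHCIIlow macrophages *Il1rn* was 2.14-fold above *Il1b*. Over the populations the tumour value was higher by 2.18 (exact two-sided permutation within populations, p = 1.25e-05, the smallest it can give, adjusted over 3 differences p = 1.9e-05), and the libraries of tumour and LP did not overlap in any population. With pools as units in place of libraries (replicate block), the difference was 2.40 (exact p adjusted to 0.043). With 4 pools per tissue few splits exist, so this p cannot be as small as that from libraries.

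*Il1r1* minus *Il1r2*, the signalling receptor against the decoy, was lower in tumour by 4.03 on average (exact permutation, p = 1.25e-05, adjusted p = 1.9e-05). It was negative in all 24 libraries, from -0.82 in 1 LP MHCIIlow library to -16.54 in 1 tumour neutrophil library, and with log2(RPKM + 1) the average fall was 2.29. *Il18* minus *Il18bp* was lower in tumour by 1.10 on average (exact permutation p = 0.015, adjusted p = 0.015), yet it moved the other way in monocytes, from 1.23 ± 0.36 to 2.34 ± 0.59 (SD, n = 3). In MHCIIhi macrophages it went from -1.83 ± 0.20 to -3.03 ± 0.09, in MHCIIlow macrophages from 0.15 ± 0.98 to -3.07 ± 0.40 and in neutrophils from -0.19 ± 0.22 to -1.26 ± 0.88. With pools as units the last average was -1.40 with an adjusted exact p of 0.086. Libraries of 1 donor number were taken to share mice as 1 pool, and in a single population 3 against 3 libraries cannot give a p below 0.1.

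**Figure D3:**
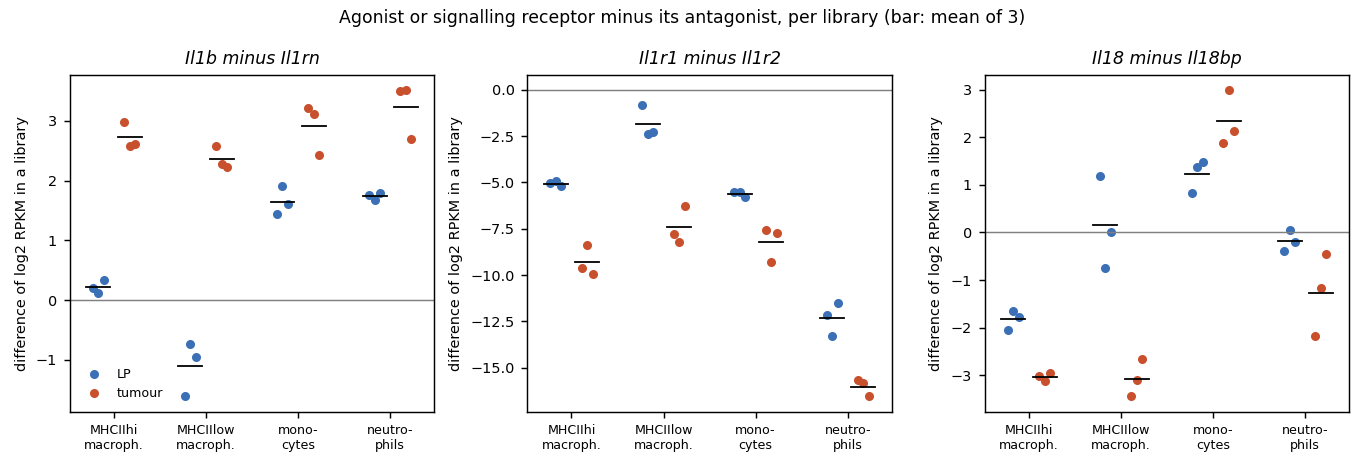
Difference of log2 RPKM within a library (vertical axes) for 3 pairs of genes in the 4 populations (horizontal axes), with LP in blue, tumour in red and bars at the mean of 3 libraries. The tumour points of Il1b minus Il1rn lie above those of LP in every population and those of Il1r1 minus Il1r2 below, and Il18 minus Il18bp rises in monocytes and falls elsewhere.

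Within a tissue the genes were ordered by population. In LP neutrophils, all 8 differed from the mean of the macrophage subsets, 7 higher and *Il1r1* lower (67.8% of all genes called), although *Il1a* turned from 1.05 to -0.15 under quantile normalization, and in tumour neutrophils 6 were higher and *Il1r1* lower (73.9%), with *Il18bp* not called (-0.08 ± 0.39, adjusted p = 0.86). The *Il1r1* call in tumour (-1.58 ± 0.53, adjusted p = 0.012) was lost without tumour neutrophil library V (adjusted p = 0.052). It was also lost with log2(RPKM + 1), quantile normalization, libraries centred on their median, the compared groups alone and voom on the recovered reads (adjusted p from 0.07 to 0.77). The largest of these differences were those of *Il1rap* (5.86 ± 0.23 in LP and 7.24 ± 0.23 in tumour) and *Il1r2* (5.16 ± 0.34 and 6.08 ± 0.34). Neutrophils against monocytes gave 6 higher and 1 lower in LP (54.5%) and in tumour (58.1%), where *Il1rn* was 1.34 ± 0.18 and 1.54 ± 0.18 higher but turned to -0.13 and -0.25 under quantile normalization. Without both keratinocyte-bearing LP monocyte libraries the LP calls of *Il1r1* and *Il18* were lost (adjusted p = 0.052 and 0.059), and under quantile normalization that of *Il18* (adjusted p = 0.055). *Il1b* was 1.43 ± 0.28 higher in LP neutrophils than in LP monocytes and 1.86 ± 0.28 higher in tumour neutrophils than in tumour monocytes (adjusted p = 0.00027 and 1.3e-05), and under quantile normalization the tumour difference was 0.18 (adjusted p = 0.52).

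Monocytes against macrophages gave 5 higher genes in LP (29.5%) and 7 higher and 1 lower in tumour (38.3%). The lower one was *Il18bp*, 3.29 ± 0.39 below tumour macrophages (adjusted p = 9.7e-07), whereas *Il1b* was 2.84 ± 0.25 higher in LP and 2.61 ± 0.25 higher in tumour monocytes. *Il1r1* was 1.43 ± 0.53 higher in tumour monocytes (adjusted p = 0.04), a call lost when any of 5 single libraries was left out (tumour MHCIIhi VII, tumour MHCIIlow I or V, tumour monocytes I or V), with adjusted p from 0.053 to 0.15. With the pool as a fixed replicate block it was 1.29 (adjusted p = 0.18), and log2(RPKM + 1), the compared groups alone and arrayWeights also lost the call (adjusted p from 0.052 to 0.13). MHCIIlow against MHCIIhi macrophages gave 3 lower genes in LP (7.7%), *Il1r2*, *Il1b* (-2.02 ± 0.28, adjusted p = 0.00014) and *Il1rn* (-0.71 ± 0.18, adjusted p = 0.018). The *Il1rn* call was lost without LP MHCIIhi library IV or V or LP MHCIIlow library III (adjusted p from 0.059 to 0.066), and voom on the recovered reads called 5 genes. In tumour 0 of the 8 were called by limma (1.13%) and 0 by voom on the recovered reads, with 1 (*Il1r1*) at an unadjusted p under 0.05.

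Genes with the most similar levels over the 24 libraries are given as a description, since the libraries share populations and pools. For *Il1a* they were *Sgk3*, *Aldh3b1* and *Atxn1* (Pearson r = 0.95, 0.93 and 0.93), and for *Il1b* *Ptgs2*, which encodes the prostaglandin enzyme COX-2, and *Bhlhe40* (r = 0.97 each). *Il1rn* went with *Cd53*, *Cmip* and *Hpcal1* (0.98 each), *Il1r2* with *Slc15a3*, *Dgat1* and *Cyp4f18* (0.98, 0.96 and 0.96), and *Il1rap* with *Tpm4* and *Osbpl9* (0.99 and 0.98). *Il1r1* went with *Dtx2*, *Dtnbp1* and *Tnip3* (0.94, 0.93 and 0.91), *Il18* with *Rara*, *Maml1* and *Diaph1* (0.92, 0.91 and 0.91), and *Il18bp* with *Plxnc1*, *Ubald1* and *Tlr1* (0.90, 0.89 and 0.85). *Il1rn* and *Il1rap* were the most alike pair of the 8 genes (r = 0.92).

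Genes around the receptor were called in both directions. Of 17 genes of IL-1 receptor signalling, 1 was higher and 5 lower in tumour MHCIIhi macrophages, 3 and 4 in MHCIIlow macrophages, 2 and 1 in monocytes and 1 and 2 in neutrophils, where 19.5%, 23.3%, 9.29% and 32.2% of all genes were called in either direction. Their median differences lay between -0.24 and -0.10. *Peli1*, a ubiquitin ligase of the pathway, fell in all 4 populations, by 1.32 ± 0.17, 1.81 ± 0.17, 0.81 ± 0.17 and 0.70 ± 0.17 in MHCIIhi macrophages, MHCIIlow macrophages, monocytes and neutrophils (adjusted p from 2.8e-07 to 0.0045). *Tollip*, an inhibitor of receptor signalling, fell in MHCIIhi (-1.11 ± 0.17) and MHCIIlow macrophages (-1.38 ± 0.17). So did *Ikbkg*, the regulatory subunit of the IκB kinase (-0.76 ± 0.23 and -0.90 ± 0.23). *Irak2*, a kinase-like adaptor below MYD88, rose in both macrophage subsets and monocytes, by 0.66, 0.86 and 0.85 (SE 0.18). *Irak3*, an inhibitory relative, fell in MHCIIhi macrophages (-0.86 ± 0.21) and rose in monocytes (0.81 ± 0.21).

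Of 14 tested genes for processing and release, 4 were higher and 4 lower in tumour MHCIIhi macrophages, 3 and 4 in MHCIIlow macrophages, 1 and 0 in monocytes and 4 and 1 in neutrophils (19.5%, 23.3%, 9.29% and 32.2% of all genes). *Casp4*, the non-canonical inflammasome caspase, fell by 2.31 ± 0.17 in MHCIIhi and 2.91 ± 0.17 in MHCIIlow macrophages (adjusted p = 1.7e-08 and 8.4e-10), and *Capn2*, a calpain subunit of the type that cleaves the IL-1 alpha precursor, by 2.57 ± 0.30 and 2.42 ± 0.30. *Nlrc4*, an inflammasome sensor, was 1.64 ± 0.22, 1.62 ± 0.22 and 1.64 ± 0.22 higher in MHCIIhi macrophages, MHCIIlow macrophages and neutrophils. *Nlrp3*, the sensor most tied to IL-1 beta release, rose in neutrophils (1.64 ± 0.27, adjusted p = 0.00011), from a mean of 209 to 651 RPKM, and so did *Capn1* (1.68 ± 0.31).

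Of 8 tested genes among other family ligands and receptors, 1 was higher and 2 lower in tumour MHCIIhi macrophages (19.5% of all genes called) and 2 higher and 1 lower in MHCIIlow macrophages (23.3%). In monocytes 1 was lower (9.29%). *Il1f9* (IL-36 gamma) was a neutrophil transcript, with means of 1488 RPKM in LP and 4186 RPKM in tumour neutrophils, a difference of 1.5 ± 1.40 (adjusted p = 0.45). Its call in MHCIIlow macrophages (4.18 ± 1.40, adjusted p = 0.036) rested on 0 to 35 reads in LP and 79 to 94 in tumour. There it stood at 0.029% to 0.0489% of the level in tumour neutrophils. The 12 neutrophil markers summed to 0.723% to 1.90% and the 10 without *Mmp9* and *Csf3r* to 0.0798% to 0.0985%. Medians of single markers lay on either side of *Il1f9*, from 0.00166% (*Ngp*) to 21.2% (*Mmp9*), and the part of neutrophil RNA was not tested. The size of the call depends on the prior because 1 LP library had 0 reads. *Il18rap*, the accessory chain of the IL-18 receptor, fell in MHCIIhi macrophages (-2.58 ± 0.58, adjusted p = 0.0031), from 253 to 376 reads to 16 to 70 reads. *Il33*, named after its values were seen, had 574 to 1407 reads in LP and 0 reads in every tumour MHCIIhi library. Fibroblast markers, given above, were also lower there, and their part in the level of *Il33* was not tested. *Il1rl2*, also named after its values were seen, went the other way. It had 535 to 562 reads in LP and 1053 to 3067 reads in tumour MHCIIhi libraries.

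**Figure D4:**
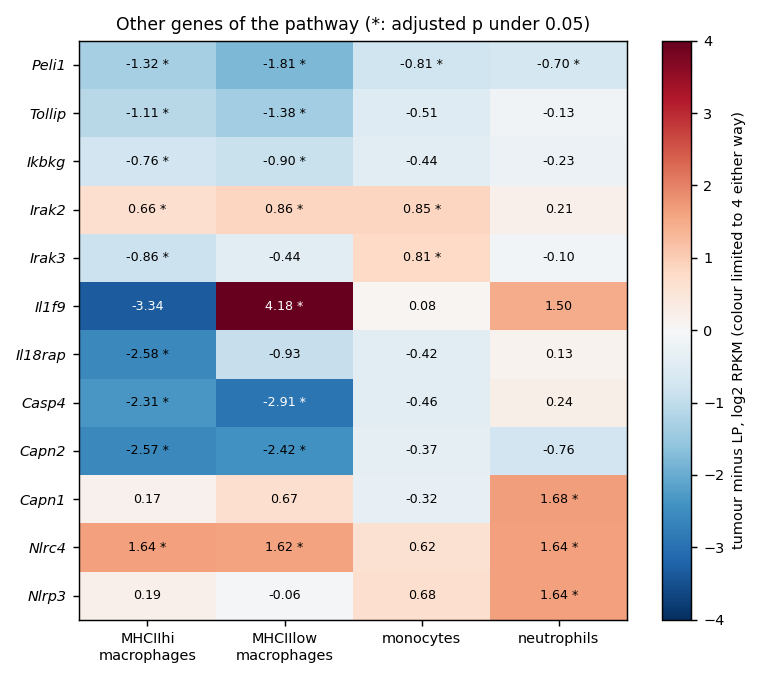
Tumour minus LP difference in log2 RPKM of 12 other genes of the pathway (rows) in the 4 populations (columns), with the value in each cell, colour for its size and sign, and an asterisk for an adjusted p under 0.05. Casp4, Capn2 and Peli1 are lower and Nlrc4 higher in both macrophage subsets, and Nlrp3 passes the test in neutrophils.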

How the data were processed

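The authors made modified SMARTSeq v2 libraries, sequenced them as paired ends, aligned to GRCm38/mm10 with STAR (2.3 in the submitters' processing notes), assigned reads to GENCODE genes by featureCounts (1.5) and dropped genes that had few reads throughout. They deposited log2 RPKM for 17301 genes, with a prior of 0.25 reads and a scaling between libraries, so low genes depend on the prior. All 24 columns were used, and 0 per-sample columns were left without a sample. Whole reads were recovered for 100% of genes and served for depth and for voom as an alternative.

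A linear model with 8 group means was fitted by limma (version 3.58.1, run in R 4.3.3, with a trended prior variance). It took 12878 genes, those whose group mean reached 1 RPKM anywhere, and p-values were adjusted by Benjamini-Hochberg within each of 16 comparisons, with a threshold of 0.05. The difference of 2 genes was tested by exact permutation of tissue within populations. The steps were tested on simulated data. The members, lists, markers and motifs were chosen with earlier results of these data known. *Il33* and *Il1rl2* were named outside the rule that follows. The genes named were the 8 members, list genes reaching a group mean of 10 RPKM and called between tumour and LP (at most 5 per list, by size), and the 3 genes most like each member (without predicted genes), of which some are not reported here.

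The labels give a donor number, which was taken to mark a pool and so to pair libraries within a tissue. The study sorted cells from pooled mice but does not say how donor numbers relate to its pools. Over 29 pairs of libraries of the same pool, deviations from group means correlated with r of -0.066 to 0.25 (median 0.017). Tumour and LP pools are different mice, so a pool block cannot be fitted to their difference. Libraries of 1 group correlated at 0.81 to 0.92, and 0 pairs were identical. P-values of the main tests measure the spread between libraries within groups, and take libraries that share a donor number as independent. The alternatives were other pseudocounts, filters and scalings, the compared groups alone, arrayWeights, pool blocks, voom and leaving out each library.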

Additional observations from a re-analysis of the deposited data

Results flagged for a closer look

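Results are listed here where the difference between tumour and LP was unlike in 2 sets of cells, in log2 RPKM. By limma, the tumour effect in MHCIIlow macrophages exceeded that in MHCIIhi macrophages by 1.67 for *Il1b* (adjusted p = 0.043) and by 3.59 for *Il1r2* (adjusted p = 0.0027). For *Il18* the effect in neutrophils minus that in monocytes was -1.58 (adjusted p = 0.015). The effect in monocytes and neutrophils minus that in macrophages was 1.58 for *Il1rn* (adjusted p = 3.0e-06), 2.49 for *Il1r1* (adjusted p = 0.0064, and 0.054 with the pool as a fixed replicate block), 1.55 for *Il1rap* (adjusted p = 0.00026) and -2.05 for *Il18bp* (adjusted p = 0.0025). In 3 further pairs, tumour libraries lay wholly above LP in the first population and wholly below it in the second, and the difference was not tested. These were *Il1r2* in neutrophils minus MHCIIhi macrophages (2.71), *Il1rap* in monocytes minus MHCIIhi macrophages (1.76) and *Il18* in monocytes minus MHCIIlow macrophages (1.53). The first effect of each pair was not called, and that of *Il1r2* turned under quantile normalization. Of all genes, 18.3% in neutrophils and 16.2% in monocytes lay wholly above LP. Wholly below it lay 22.1% in MHCIIhi and 19.3% in MHCIIlow macrophages.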

How the results depend on the processing

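Numbers of tested genes called were within 1.5 times of those reported under most alternatives. The exceptions were tumour against LP in MHCIIlow macrophages (7, and 4 with the compared groups alone), MHCIIlow against MHCIIhi macrophages in LP (3, and 5 with voom on recovered reads), the difference of effects between macrophage subsets (2, and 1 with libraries centred on their median and 0 with the compared groups alone), and the difference between neutrophils and monocytes (1, and 0 with quantile normalization). Without both keratinocyte-bearing LP monocyte libraries, added after seeing the data, the monocyte count went from 2 to 0 and the count between neutrophils and monocytes from 1 to 0. The cause was not tested. Leaving out single libraries gave counts from 0 to 2 for monocytes and 1 to 2 for the difference between macrophage subsets.

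Quantile normalization turned *Il1rn* (-0.85) and *Il1r2* (-0.10) between tumour and LP neutrophils, *Il1a* (-0.15) between LP neutrophils and macrophages, *Il1rn* between neutrophils and monocytes of LP (-0.13) and tumour (-0.25), and *Il1a* (-0.78) between tumour neutrophils and monocytes. It also gave *Il1b* between tumour and LP neutrophils as 0, since it assigns the same value to the same rank. With libraries centred on their median, *Il18bp* in neutrophils was 0.045 rather than -0.20. Leaving out single libraries gave ranges that crossed 0 for 3 differences that were not called, *Il18* in MHCIIhi macrophages (-0.48 to 0.17), *Il1rn* in neutrophils (-0.065 to 0.14) and *Il18bp* in neutrophils (-0.61 to 0.069).

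With the pool as a fixed replicate block, 50 of 52 calls that could be fitted were kept, and *Il1r1* lost its call for tumour monocytes against macrophages (1.29, adjusted p = 0.18) and for the difference of effects between monocytes and neutrophils and macrophages (2.44, adjusted p = 0.054). A random replicate block kept 72 of 72 calls. With pools as units (replicate block), *Il18* minus *Il18bp* was -1.40 (adjusted p = 0.086). Depth limits *Il1r1* in tumour, at 4 to 9 reads in neutrophils.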
